A study of Arabidopsis thaliana with 9 samples.

Results

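UDP-glycosyltransferases (UGTs) join a sugar, most often glucose, to small molecules such as hormones, flavonoids, lignin precursors and foreign chemicals. In plants the attached sugar usually inactivates the acceptor and lets it be stored in the vacuole, so UGTs are one way in which free hormone levels are set. The family is large, its members are numbered by sequence family, and many lie side by side in the genome as tandem copies. The UGT genes described here were the probe sets whose single gene symbol in the array annotation was UGT followed by a 2-digit family number. The rule found 47 genes, with 1 probe set each, among 13350 singly named genes. They fell into 11 families, the largest being UGT71 with 9 members, UGT76 with 8 and UGT73 with 7. Another 3 probe sets that named a UGT together with a second gene were left out, and 4 UGT genes that the annotation lists under other names are given where they bear on a result.

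Expression was measured in rosette leaves of 5-week-old Arabidopsis thaliana plants of ecotype Col-0 on Affymetrix 1-colour arrays, in 3 groups of 3 arrays. The groups were the bio4-1 mutant watered weekly with 200 µM D-biotin, the bio4-1 mutant watered with plain water, and wild type watered with plain water. The bio4-1 line carries a T-DNA in the 5' UTR of BIO4, which acts in making biotin, the vitamin that carboxylases such as acetyl-CoA carboxylase need. Each RNA was pooled from 5 plants, bio4-1 is 1 insertion line, and wild type was not watered with biotin. A response to biotin that any plant would show and one particular to the mutant cannot be told apart. BIO4 itself was not analysed here. All values below are log2 expression summaries, so a difference of 1 is a 2-fold change, and levels are compared between samples for 1 gene and not between genes.

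The arrays numbered 1 stood apart from the other arrays of their groups. Pairs with exactly 1 of them correlated at 0.95 to 0.972 across probe sets, against 0.987 to 0.997 for the 15 pairs among arrays 2 and 3. In the actin control, where probes at both ends of the transcript report on RNA integrity, the 3' end exceeded the 5' end by 3.67 to 4.13 on the arrays numbered 1, against 2.27 to 2.76 on the other 6. The ubiquitin control showed no such shift, with an excess of 1.52 to 1.73 on the arrays numbered 1, against 1.48 to 1.72 on the other 6. Because the arrays numbered 1 stood apart, counts for every comparison are given on all 9 arrays and on arrays 2 and 3 alone, which leaves 2 arrays a group. Differences of single genes are given on arrays 2 and 3, and for some also on all 9 arrays. Of the marker genes of leaf and other cell types, 2 had a named probe set: RCA, the activase of the carbon-fixing enzyme Rubisco, was at 13.77 to 13.86 on every array, and FMA (FAMA), a guard cell regulator, at 5.79 to 6.76. Markers of phloem, trichomes, flowers and roots were not measured under their own names. In pooled leaf RNA, fewer cells of a type and less RNA per cell cannot be told apart.

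No UGT gene passed the threshold, a limma adjusted p of 0.05, on all 9 arrays in any of the 3 comparisons. On arrays 2 and 3, 13 of the 47 genes (27.7%) passed in at least 1 comparison, against 8.28% of all tested probe sets. The 13 genes were UGT71B1, UGT71B6, UGT73B1, UGT73B5, UGT74D1, UGT76E11, UGT78D1, UGT84A3, UGT85A2, UGT85A4, UGT85A5, UGT87A2 and UGT88A1. The other 34 genes passed in none. A total of 14 members had a mean level under 4.01, the 30th percentile of all tested probe sets, and none of the 14 was among the 13. The median difference of the family on all 9 arrays was −0.07 between bio4-1 and wild type (16 genes higher, 31 lower, against 21 and 26 on arrays 2 and 3), 0.02 between biotin-watered and plain-watered bio4-1, and −0.04 between biotin-watered bio4-1 and wild type, beside −0.03, 0.02 and 0 over all tested probe sets.

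**Figure D1:**
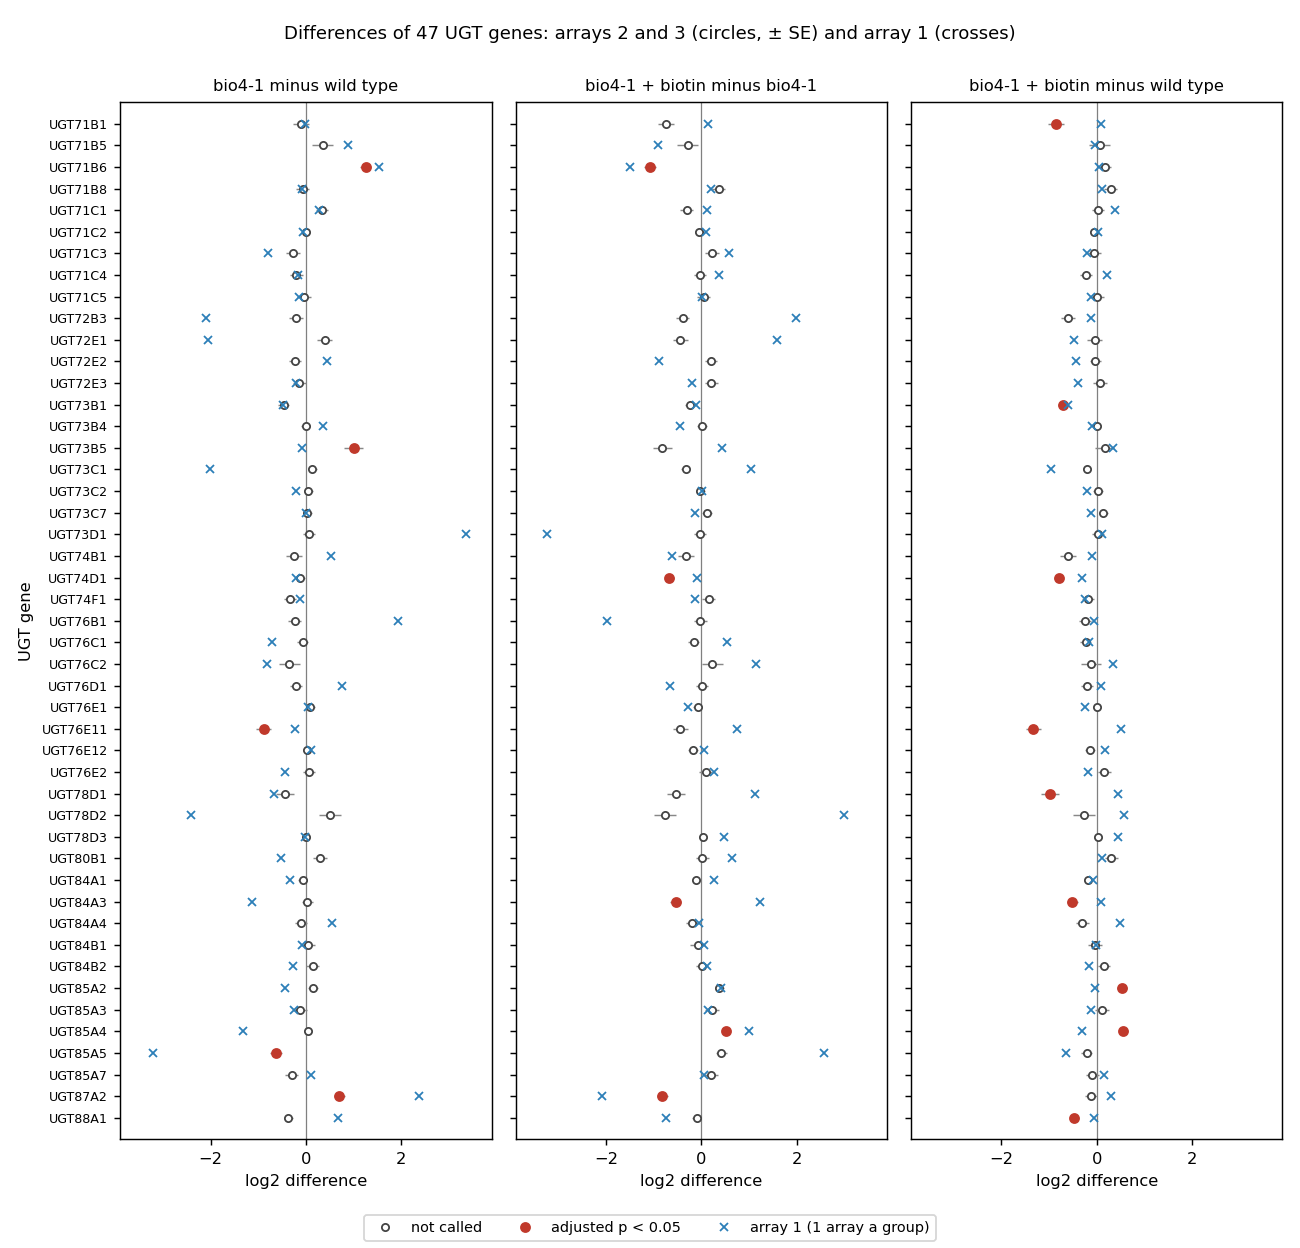
Log2 differences of the 47 UGT genes (rows) in the 3 comparisons (panels). Circles with SE bars are from the limma fit on arrays 2 and 3, filled where the adjusted p was under 0.05, and crosses are the differences between the single arrays numbered 1. Filled circles number 5, 5 and 9 in the panels from left to right, and the crosses of UGT73D1, UGT78D2 and UGT85A5 lie far from their circles in the first panel.

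The first comparison set bio4-1 against wild type, both plain-watered, and asked which UGT genes differ in leaves of a plant with a defect in biotin synthesis. UGT71B6, UGT87A2 and UGT73B5 rose and UGT76E11 and UGT85A5 fell on arrays 2 and 3, by 1.55-fold to 2.38-fold. The 3 rises are 6.38% of the family, against 2.38% of all tested probe sets that rose, and the 2 falls are 4.26%, against 1.6%. On all 9 arrays limma called none of them, against 0.0308% of all probe sets, and 4 members (8.51%) had an unadjusted p under 0.05, against 7.06% of all. These 4 were UGT71B6, UGT73B1, UGT85A5 and UGT87A2.

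UGT71B6 glucosylates abscisic acid, the drought hormone, and so turns it into an inactive glucose ester. Its level was 7.11, 6.38 and 6.28 on bio4-1 arrays 1, 2 and 3, against 5.57, 5.20 and 4.97 on wild type arrays 1, 2 and 3. Every bio4-1 array lay above every wild type array. The difference on all 9 arrays was 1.35 (95% interval 0.77 to 1.93; limma adjusted p = 0.208). With the arrays numbered 1 set against the rest as a block, the same difference passed (adjusted p = 0.0179). UGT71B6 rose by 1.25 ± 0.12 (SE) on arrays 2 and 3, or 2.38-fold, with a limma adjusted p of 0.00478, and array 1 of bio4-1 was 1.54 above array 1 of wild type. Leaving out 1 of the 6 arrays at a time kept the difference at 1.13 to 1.37. The call was lost whenever a bio4-1 or wild type array was left out, which left that group with 1 array. It was kept only where a biotin-watered array, outside this comparison, was left out.

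UGT87A2 is known for an effect on flowering time through the repressor FLC. It had 10.55, 8.57 and 8.44 on bio4-1 arrays 1, 2 and 3, against 8.18, 7.93 and 7.68 on wild type arrays. The groups did not overlap, and bio4-1 array 1 stood 2.05 above the mean of the other bio4-1 arrays. UGT87A2 rose by 0.70 ± 0.12 on arrays 2 and 3 (SE; limma adjusted p = 0.0267), and on all 9 arrays it was 1.26 higher (adjusted p = 0.699). UGT73B5 takes part in the response to oxidative stress and to bacterial attack. Its 3 bio4-1 values, 6.25, 6.16 and 5.92, lay close together, against 6.34, 5.31 and 4.79 in wild type. The groups overlapped because wild type array 1 was as high as the mutant, with a difference between the arrays numbered 1 of −0.09. It rose by 1.00 ± 0.20 on arrays 2 and 3 (SE; adjusted p = 0.0388).

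UGT76E11 acts on flavonoids such as quercetin. It read 6.30, 6.01 and 6.54 in bio4-1, against 6.54, 7.15 and 7.17 in wild type. Both mutant arrays numbered 2 and 3 were below both such wild type arrays, and on these UGT76E11 fell by 0.89 (SE 0.16; limma adjusted p = 0.0320). UGT85A5, known for salt tolerance when expressed in tobacco, had 5.12, 7.24 and 7.29 in bio4-1, against 8.34, 7.79 and 8.01 in wild type. All mutant arrays were below all wild type arrays, array 1 by far the most, with −3.22 between the arrays numbered 1. UGT85A5 fell by 0.63 on arrays 2 and 3 (SE 0.12; adjusted p = 0.0371), and on all 9 arrays the difference was −1.50 (adjusted p = 0.598). Apart from UGT71B6 and UGT76E11, no call of this comparison on arrays 2 and 3 was kept when any 1 of the 6 arrays was left out. Between 0 and 1 member passed in those fits.

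A total of 7 members (14.9%) had bio4-1 and wild type values that did not overlap, near the 13.1% of all tested probe sets. UGT71B6, UGT76E1 and UGT87A2 were above wild type and UGT74D1, UGT74F1, UGT78D1 and UGT85A5 below it. On bio4-1 arrays 2 and 3 the ubiquitin control, read at both transcript ends like actin, had a 3' excess of 1.69 and 1.72. In wild type it was 1.56 and 1.48. The actin excess was 2.69 and 2.76 in bio4-1, against 2.59 and 2.47 in wild type. That of the GAPDH control overlapped, at 0.88 and 0.69 against 0.98 and 0.6. Whether the excess bears on the 5 calls was not tested.

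**Figure D2:**
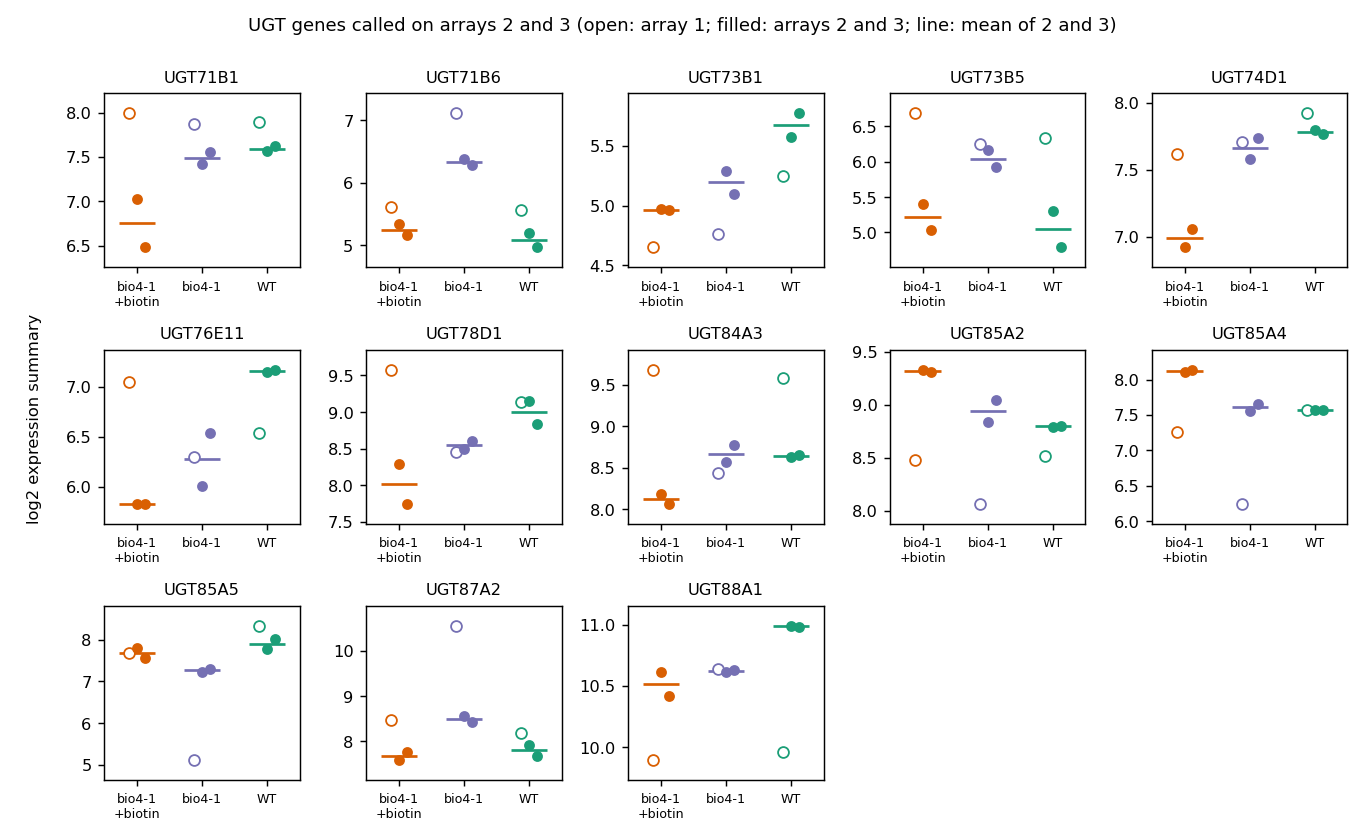
Log2 expression of the 13 UGT genes called on arrays 2 and 3 in at least 1 comparison, by group. Open circles are arrays numbered 1, filled circles arrays 2 and 3, and the line is the mean of arrays 2 and 3. For UGT71B6 all 3 bio4-1 arrays, at 6.28 to 7.11, lie above the biotin-watered and wild type arrays, at 4.97 to 5.62.

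The second comparison set bio4-1 watered with biotin against plain-watered bio4-1. It shares the bio4-1 arrays with the first, so opposite signs in the 2 comparisons are not separate evidence. UGT71B6, UGT87A2, UGT74D1 and UGT84A3 fell and UGT85A4 rose on arrays 2 and 3. The 4 falls are 8.51% of the family, against 1.86% of all tested probe sets, and the 1 rise is 2.13%, against 1.48%. By limma none of the members passed on all 9 arrays, as 0% of all probe sets did, and 3 members (6.38%) had an unadjusted p under 0.05, against 4.54%. These were UGT71B6, UGT74D1 and UGT87A2.

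UGT71B6 read 5.62, 5.34 and 5.17 with biotin, against 7.11, 6.38 and 6.28 without. No biotin-watered array reached a plain-watered one. UGT71B6 fell by 1.08 on arrays 2 and 3 (SE 0.12; limma adjusted p = 0.00901), with −1.49 between the arrays numbered 1. On all 9 arrays the difference was −1.22 (adjusted p = 0.628, or 0.0426 with the arrays numbered 1 set against the rest as a block). UGT87A2 had 8.47, 7.60 and 7.76 with biotin, against 10.55, 8.57 and 8.44 without. The groups met at biotin-watered array 1 and bio4-1 array 3. It fell by 0.82 on arrays 2 and 3 (SE 0.12; adjusted p = 0.0179), and the difference between the arrays numbered 1 was −2.08.

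UGT74D1 glucosylates auxin and its oxidised form. It had 7.62, 6.92 and 7.06 with biotin, against 7.71, 7.58 and 7.74 without biotin. Arrays 2 and 3 were apart by more than the whole plain-watered range, whereas biotin-watered array 1 lay inside it. UGT74D1 fell by 0.67 on arrays 2 and 3 (SE 0.10; adjusted p = 0.0211), with −0.09 between the arrays numbered 1. UGT84A3, which forms glucose esters of hydroxycinnamic acids such as sinapic acid, had 9.68, 8.19 and 8.07 with biotin, against 8.44, 8.57 and 8.77 without. Biotin-watered array 1 was the highest and arrays 2 and 3 the lowest, so the direction turned with the arrays used. It fell by 0.54 on arrays 2 and 3 (SE 0.11; adjusted p = 0.0455, or 0.0522 after median centring) and was 1.24 higher with biotin on the arrays numbered 1. UGT85A4 had 7.26, 8.11 and 8.14 with biotin, against 6.25, 7.56 and 7.66 without, and rose by 0.52 on arrays 2 and 3 (SE 0.09; adjusted p = 0.0322). Each biotin-watered array of UGT85A4 was above the plain-watered array of the same number.

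UGT85A5, lowered in bio4-1, was at 7.69, 7.81 and 7.57 with biotin, against 5.12, 7.24 and 7.29 without. The groups did not overlap, but the difference of 0.42 ± 0.12 (SE) on arrays 2 and 3 did not pass (limma adjusted p = 0.128). UGT73B5 read 6.68, 5.40 and 5.04 with biotin, against 6.25, 6.16 and 5.92 without, and its difference of −0.82 on arrays 2 and 3 did not pass either (adjusted p = 0.0750). With the replicate number as a block on arrays 2 and 3, 8 members (17%) passed, against 5.76% of all tested probe sets. They were the 5 above with UGT71B1 (−0.74), UGT73B5 (−0.82) and UGT78D2 (−0.77), all lower with biotin (limma adjusted p of 0.0409, 0.00749 and 0.0262). Whether arrays 2 and 3 pair by number was not tested. UGT76E11 differed by −0.44 on arrays 2 and 3 without the block (adjusted p = 0.228), away from its wild type level. Over all 9 arrays the groups did not overlap for 4 members (8.51%), UGT71B6, UGT71B8, UGT76E1 and UGT85A5, against 9.03% of all tested probe sets. The dim genes UGT71B8 and UGT76E1 differed there by only 0.31 and −0.15. Each fit without 1 of the 6 arrays left 1 group with 1 array, and some left out a wild type array, outside this comparison. UGT71B6 kept its call in some of these fits, and the other 4 genes in none.

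Biotin-watered bio4-1 was also set against plain-watered wild type, so that genotype and watering both differed. UGT76E11, UGT78D1, UGT71B1, UGT74D1, UGT73B1, UGT84A3 and UGT88A1 were lower and UGT85A4 and UGT85A2 higher on arrays 2 and 3. The 7 falls are 14.9% of the family, against 2.48% of all tested probe sets, and the 2 rises are 4.26%, against 2.66%. On all 9 arrays limma called no member, against 0.0044% of all, and 2 members (4.26%), UGT73B1 and UGT74D1, had an unadjusted p under 0.05, against 2.48%.

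UGT76E11 had 7.05, 5.83 and 5.83 in biotin-watered bio4-1, against 6.54, 7.15 and 7.17 in wild type. Arrays 2 and 3 fell by 1.33 (SE 0.16; limma adjusted p = 0.00625), or 2.51-fold, while biotin-watered array 1 was 0.51 above wild type array 1. UGT78D1, which attaches rhamnose to flavonols, had 9.58, 8.29 and 7.75 with biotin, against 9.14, 9.15 and 8.84 in wild type. It was lower on arrays 2 and 3 (−0.98 ± 0.19, SE; adjusted p = 0.0285) and 0.45 higher on array 1. UGT71B1 had 7.99, 7.02 and 6.48 in biotin-watered bio4-1, against 7.89, 7.57 and 7.62 in wild type (−0.85 ± 0.17 on arrays 2 and 3; adjusted p = 0.0341).

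UGT74D1 and UGT73B1 were lower in biotin-watered bio4-1 on arrays of every number. UGT74D1 had 7.62, 6.92 and 7.06 with biotin, against 7.92, 7.80 and 7.77 in wild type. UGT73B1, which glucosylates abscisic acid in vitro, had 4.65, 4.97 and 4.96 with biotin, against 5.25, 5.57 and 5.77 in wild type. Neither gene's groups overlapped, and on arrays 2 and 3 UGT74D1 fell by 0.80 (SE 0.10; limma adjusted p = 0.00741) and UGT73B1 by 0.71 (SE 0.11; adjusted p = 0.0155). UGT73B1 was intermediate in plain-watered bio4-1, at 4.76, 5.29 and 5.10. Groups did not overlap for 4 members (8.51%), these 2 with UGT76B1 and UGT76C1, against 5.92% of all tested probe sets. UGT76B1 and UGT76C1 differed by −0.19 and −0.21 on all 9 arrays. The 3' excess of the ubiquitin control was 1.66 and 1.67 on biotin-watered arrays 2 and 3, against 1.56 and 1.48 in wild type. That of actin overlapped, at 2.76 and 2.27 against 2.59 and 2.47. Whether the excess bears on the 9 calls was not tested.

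UGT84A3 and UGT88A1 were lower by 0.51 and 0.47 and UGT85A2 and UGT85A4 higher by 0.53 and 0.56 on arrays 2 and 3, with limma adjusted p of 0.0430, 0.0445, 0.0322 and 0.0181. Between the arrays numbered 1 these 4 genes differed by 0.09, −0.06, −0.04 and −0.31. UGT71B6, by contrast, differed by 0.17 on arrays 2 and 3 (95% interval −0.11 to 0.45) and by 0.13 on all 9 arrays (−0.45 to 0.71). For UGT87A2 the difference was −0.12 (−0.41 to 0.16) on arrays 2 and 3 and 0.01 (−1.22 to 1.25) on all 9. Each fit without 1 of the 6 arrays left 1 group with 1 array, and some left out a plain-watered bio4-1 array, outside this comparison. Fewer members passed in every such fit, and UGT74D1 and UGT76E11 kept their calls in some.

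Grouped by acceptor, the abscisic acid UGTs differed in what they did. Their median difference between bio4-1 and wild type was −0.05 on arrays 2 and 3, beside −0.01 over all tested probe sets. Of 4 measured, UGT71B6 rose in bio4-1 and fell with biotin on arrays 2 and 3, UGT73B1 fell in the comparison of biotin-watered bio4-1 with wild type, and UGT71B8 and UGT71C5 passed in no comparison. UGT71C5 read 7.94 to 8.59 in bio4-1, against 8.08 to 8.68 in wild type. The 1 measured gene of abscisic acid turnover, BGLU33, a beta-glucosidase, differed by −0.41 on arrays 2 and 3 (limma adjusted p = 0.256).

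Of the 4 UGTs for salicylic acid and related immune signals, UGT74F1, UGT76B1, UGT76D1 and UGT71C3, none passed, with a median difference of −0.25 between bio4-1 and wild type on arrays 2 and 3. UGT76B1, which glucosylates salicylic acid and the immune signals isoleucic acid and N-hydroxypipecolic acid, had 3.41, 3.19 and 3.45 in biotin-watered bio4-1, 5.40, 3.36 and 3.31 in plain-watered bio4-1 and 3.47, 3.68 and 3.47 in wild type. Array 1 of plain-watered bio4-1 was the one high value. BSMT1, a methyltransferase that makes methyl salicylate, lay between 2.98 and 3.25 on all arrays. Of the 2 auxin UGTs, UGT74D1 passed and UGT84B1 did not, its differences on arrays 2 and 3 lying between −0.08 and 0.04.

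None of the 3 cytokinin UGTs, UGT76C1, UGT76C2 and UGT73C1, and neither of the 2 jasmonate-related ones, UGT76E1 and UGT76E2, passed. UGT76C2, an N-glucosyltransferase of cytokinins, was at 4.81, 5.99 and 5.92 in bio4-1, against 5.62, 5.98 and 6.64 in wild type. Among 7 UGTs of monolignols and hydroxycinnamic acids, UGT84A3 was the 1 that passed, and the list's median was −0.11 between bio4-1 and wild type on arrays 2 and 3. UGT72E1, a coniferaldehyde glucosyltransferase, had 9.66 and 9.39 on bio4-1 arrays 2 and 3, against 9.02 and 9.24 in wild type, and the difference between the arrays numbered 1 was −2.06. HCT, a shikimate hydroxycinnamoyl transferase of lignin synthesis, fell against wild type on arrays 2 and 3, with −0.63 in biotin-watered bio4-1 and −0.67 in plain-watered bio4-1 (limma adjusted p of 0.0189 and 0.0211). It did not pass on all 9 arrays, at −0.39 and −0.05, and between the arrays numbered 1 it was higher than in wild type, by 0.10 and 1.20. CCR2, a cinnamoyl-CoA reductase, differed from wild type by −0.07 in biotin-watered and −0.26 in plain-watered bio4-1.

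Of the 3 UGTs listed under stress and foreign chemicals, UGT73B5 rose and UGT76E11 fell in bio4-1 on arrays 2 and 3. UGT73B4, a dim gene at 3.45 to 3.89 over all arrays, differed by −0.01 there. Among 12 glutathione transferase genes of detoxification, GSTU27 rose (0.53) and GSTU18 fell (−0.63) in bio4-1 on arrays 2 and 3, with limma adjusted p of 0.0372 and 0.0203, and GSTU16 fell with biotin (−0.59; adjusted p = 0.0324). Against wild type, biotin-watered bio4-1 had GSTU27 higher (0.50) and GSTU16 and GSTU18 lower (−0.77 and −0.68), with adjusted p of 0.0361, 0.00924 and 0.0111. None of these GST calls was made on all 9 arrays. Between the arrays numbered 1, GSTU18 differed by 1.48 in bio4-1 against wild type and GSTU16 by 1.01 with biotin, the other way, and GSTU27 by 0.25 in bio4-1, the same way. Biotin-watered bio4-1 against wild type gave −0.25 for GSTU27, 0.10 for GSTU16 and 0.14 for GSTU18 there, all opposite to arrays 2 and 3. UGT74B1, which closes the core of glucosinolates by S-glucosylation, had 9.79, 9.75 and 9.90 in bio4-1, against 9.26, 10.07 and 10.10 in wild type. UGT80B1, a sterol glucosyltransferase, had 8.10, 8.38 and 8.35 in bio4-1, against 8.62, 7.91 and 8.23 in wild type. Neither passed, and BCAT4, an aminotransferase of glucosinolate synthesis, differed by 0.04 on arrays 2 and 3. No gene for brassinosteroid glucosylation was among the members.

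Among the 3 flavonol and anthocyanin UGTs, UGT78D1 is given above and UGT78D3, an arabinosyltransferase of flavonols, lay between 3.84 and 4.32 on all arrays. UGT76E11, which also acts on flavonoids, was listed under stress and not among these 3. Against wild type it was lower by 1.33 in biotin-watered and by 0.89 in plain-watered bio4-1 on arrays 2 and 3. UGT78D2, a flavonoid 3-O-glucosyltransferase, had 10.94, 7.76 and 7.29 in biotin-watered bio4-1, 7.95, 8.64 and 7.96 in plain-watered bio4-1 and 10.37, 7.82 and 7.78 in wild type. Array 1 was high in biotin-watered bio4-1 and in wild type but not in plain-watered bio4-1. The same arrays were high for UF3GT (UGT79B1), which adds xylose to anthocyanins, at 11.87 in biotin-watered bio4-1 and 11.45 in wild type, with 6.13 in plain-watered bio4-1. On the other 6 arrays it lay between 6.27 and 8.54. DFR, a dihydroflavonol reductase of anthocyanin synthesis, had 12.19, 9.02 and 8.53 in biotin-watered bio4-1, 5.25, 10.36 and 8.55 in plain-watered bio4-1 and 11.94, 7.49 and 7.01 in wild type.

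UGT72B3 and UGT73C1 had the same 2 high arrays. UGT72B3 had 8.15 on biotin-watered array 1 and 8.27 on wild type array 1, against 6.09 to 6.83 on the other 7 arrays. UGT73C1, which glucosylates cytokinins and foreign compounds, had 5.14 and 6.10 on these, against 3.23 to 4.09 on the other 7. The difference of UGT78D2 between bio4-1 and wild type was −0.47 on all 9 arrays and 0.50 on arrays 2 and 3, with limma adjusted p of 0.979 and 0.316. DFR on arrays 2 and 3 alone was 2.20 higher in bio4-1 than in wild type (adjusted p = 0.0663), UF3GT 1.17 (adjusted p = 0.264), and UGT78D1 differed by −0.44 (adjusted p = 0.268).

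**Figure D3:**
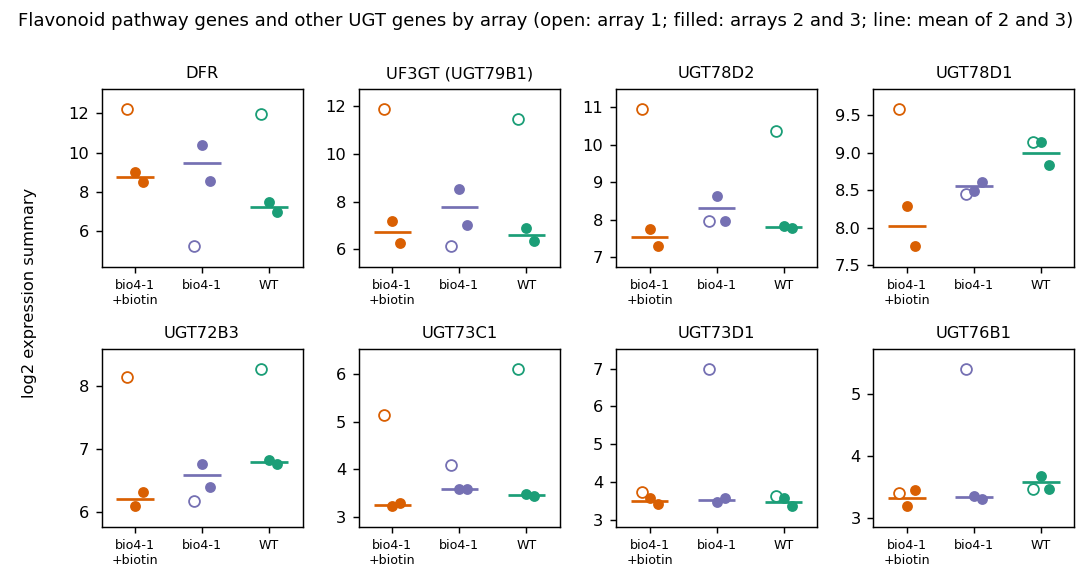
Log2 expression of DFR and UF3GT, genes of anthocyanin synthesis, and of 6 UGT genes, by group. Open circles are arrays numbered 1, filled circles arrays 2 and 3, and the line is the mean of arrays 2 and 3. Array 1 is the highest in biotin-watered bio4-1 and in wild type for DFR, UF3GT, UGT78D2, UGT72B3 and UGT73C1, and bio4-1 array 1 is the highest for UGT73D1 and UGT76B1.

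UGT73D1 had a high value on bio4-1 array 1 alone. It read 3.73, 3.58 and 3.41 in biotin-watered bio4-1, 6.98, 3.48 and 3.58 in plain-watered bio4-1 and 3.63, 3.58 and 3.36 in wild type. Its difference between bio4-1 and wild type was 1.16 on all 9 arrays (limma adjusted p = 0.874) and 0.06 on arrays 2 and 3. Taking array 1 against the mean of arrays 2 and 3 of its own group, 8 members (17%) differed by more than 1 in biotin-watered bio4-1, against 10.9% of all tested probe sets. All 8 were higher on array 1. In plain-watered bio4-1 the count was 8 (17%), against 6.55%, with UGT72E2, UGT73D1, UGT76B1 and UGT87A2 higher and UGT72E1, UGT76C2, UGT85A4 and UGT85A5 lower. In wild type it was 5 (10.6%), against 8.35%, with UGT72B3, UGT73B5, UGT73C1 and UGT78D2 higher and UGT88A1 lower. These are single arrays and carry no test. The 3' excess of the GAPDH control was 2.61 in biotin-watered bio4-1, 2.24 in plain-watered bio4-1 and 1.55 in wild type on these arrays, against 0.58 to 0.98 on the other 6, and whether it bears on the UGT values was not tested.

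**Figure D4:**
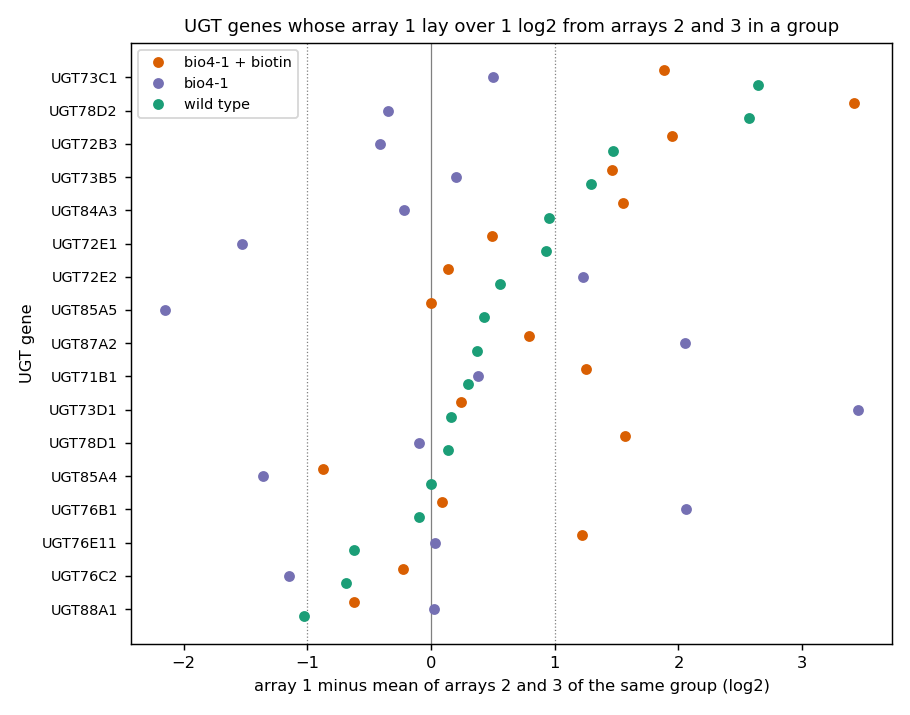
Value on array 1 minus the mean of arrays 2 and 3 of the same group (log2) for the 17 UGT genes over 1 in size in at least 1 group. Dotted lines mark −1 and 1. Biotin-watered bio4-1 and wild type lie on the right for UGT73C1, UGT78D2, UGT72B3 and UGT73B5, where plain-watered bio4-1 lies within the dotted lines. UGT73D1 stands out at 3.45 in plain-watered bio4-1.

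With up to 2 other protein-coding genes allowed between members in the TAIR10.1 gene order, 31 members lay in 13 clusters of 2 to 4 genes and 16 lay alone. In 5 clusters at least 1 member passed on arrays 2 and 3, and in none did every member pass. Of the members in clusters 7 passed in at least 1 comparison, and of the 16 outside them 6. Over the family the share was 27.7%, against 8.28% of all tested probe sets. That no cluster passed in full is therefore not read as a difference between tandem copies. The cluster of 4 on chromosome 1 holds UGT85A7, UGT85A2, UGT85A5 and UGT85A3. In bio4-1 UGT85A5 fell by 0.63, while UGT85A2 differed by 0.15 and UGT85A3 and UGT85A7 by −0.12 and −0.30, none of the 3 passing. On chromosome 3, UGT71B6 (AT3G21780) rose by 1.25 in bio4-1, whereas UGT71B8 (AT3G21800), with 1 gene between them, differed by −0.07 and UGT71B1 (AT3G21750) by −0.11. With biotin, however, UGT71B1 moved the same way as UGT71B6 on arrays 2 and 3, by −0.74 and −1.08. UGT71B8 differed by 0.36. Without the block the limma adjusted p of UGT71B1 was 0.0674, and with the replicate block it passed. UGT73B5 (AT2G15480) and UGT73B4 (AT2G15490) are adjacent on chromosome 2, and their differences were 1.00 and −0.01. UGT73B4 and UGT71B8 read 3.45 to 3.89 and 3.65 to 4.21 over all arrays, both with means under the 30th percentile of 4.01. At such low levels a flat value does not show that a neighbour did not respond. UGT84A3 on chromosome 4 fell with biotin by 0.54, while its neighbours UGT84A1 and UGT84A4 differed by −0.11 and −0.19.

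Of the 4 UGT genes under other names, UF3GT is described above. GT72B1 (UGT72B1), which acts on chlorinated phenols, had 10.52, 8.88 and 8.87 in biotin-watered bio4-1, 9.86, 9.09 and 9.25 in plain-watered bio4-1 and 10.60, 9.24 and 9.14 in wild type. SGT (UGT80A2), a sterol glucosyltransferase, lay between 7.43 and 8.41, and AT5G54010 (UGT79B6) between 3.20 and 3.49. None of the 4 passed in any comparison on all 9 arrays or on arrays 2 and 3.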

How the data were processed

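The authors deposited log2 values of 22810 probe sets on 9 arrays, made with RMA per the submitters' processing notes. Its version was not given in the sources used here. Array medians were 5.95 to 6.07, and precision is limited by the number of arrays. Tests left out 64 control probe sets and covered 22746, of which 13513 had 1 gene name in the annotation, 503 several and 8730 none. All 47 members matched a locus in RefSeq's TAIR10.1 table, used for names and gene order only.

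One limma fit (version 3.58.1, R 4.3.3) held the 3 groups without a block or a filter on low values, and p-values were adjusted by Benjamini-Hochberg across the tested probe sets of each comparison. The labels say that each sample was a pool of plants but not how the pools were kept apart, and the p-values reflect the differences among such pools, which may be technical. Same-numbered arrays deviated together between biotin-watered and plain-watered bio4-1 (r of 0.35, 0.27 and 0.32). They also did between biotin-watered bio4-1 and wild type (0.83, 0.61 and 0.75), and both were taken as pairing. They did not in every pair between bio4-1 and wild type (0.22, −0.03 and 0.36). The main fit ignores this pairing, so its p-values and shares for the biotin comparisons are unpaired, and block fits are given as alternatives. Deviations were taken from the mean of a group's 3 arrays, so the offset of array 1 enters those of arrays 2 and 3. The r values therefore cannot show whether arrays 2 and 3 pair by number. On all 9 arrays a block on the number called no member in either biotin comparison. On arrays 2 and 3 it kept every call and added 3 members between biotin-watered and plain-watered bio4-1. No columns of other samples were found.

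The members and lists were chosen with earlier results of these data known. Genes named with all values were UGT71B6, UGT73D1, UGT72B3, UGT76E11, the members called in any comparison on 9 arrays or on arrays 2 and 3, and per comparison the 6 largest differences on either set of arrays. Other genes given for a role, a position or a pattern were picked after the values were seen. The alternatives tried were 2 filters on dim probe sets, 2 normalizations, 2 blocks, array weights, a trended robust variance, a threshold of 0.1, the 2 groups alone, and leaving out arrays. Leaving out 1 of the 6 arrays 2 and 3, and both normalizations and the block on these, were added after seeing the data. The scripts were tested on simulated data. Tables and plots used Python 3.11.15 with pandas 2.3.3 and matplotlib 3.10.9.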

Additional observations from a re-analysis of the deposited data

How the results depend on the processing

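The number of UGT genes past the threshold depended on the arrays used. Against 0 on all 9 arrays in each comparison, arrays 2 and 3 gave 5 genes for bio4-1 against wild type, 5 for biotin-watered against plain-watered bio4-1 and 9 for biotin-watered bio4-1 against wild type. Array weights gave 2, 2 and 8, without a share over all tested probe sets here. The weights were 6.77 for biotin-watered array 2 and 4.76 for wild type array 2, against 0.83 and 0.97 for arrays 3 of these groups. The arrays numbered 1 had 0.19 to 0.25, so the third comparison rested mainly on 1 array a group. A block of the arrays numbered 1 against the rest gave 1, 1 and 0. With the replicate block 1, 0 and 0 passed, UGT71B6 being the 1 (limma adjusted p = 0.0414) in bio4-1 against wild type. There the numbers were not taken to pair the samples. For both block fits on all 9 arrays no share over all tested probe sets is given, so nothing particular to UGT genes is read from these counts. Leaving out any 1 of 9 arrays gave 0 in each comparison. On arrays 2 and 3 the replicate block gave 5, 8 and 9. The 8 were 17% of the family, against 5.76% of all tested probe sets, and no such share is given for the 5 and 9. Every call made without the block on these 6 arrays was kept. Leaving out 1 of the 6 gave 0 to 1, 0 to 1 and 0 to 3, fewer whichever array was left out, and UGT84A3 lost its call in the second comparison with median centring (adjusted p = 0.0522).

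The family's median difference, −0.07 in bio4-1 against wild type, was −0.19 with a minimum mean of 6 and −0.15 with the 30th percentile filter. In the second comparison it was 0.02, or −0.06 with array weights, and in the third −0.04, or −0.21 with a minimum mean of 6. With 1 of 9 arrays left out the medians were −0.11 to −0.04, −0.10 to 0.08 and −0.11 to −0.02.

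Some differences on all 9 arrays changed sign, none of them past the threshold there. In bio4-1 against wild type, UGT78D2 was 0.50 on arrays 2 and 3, 0.37 with array weights and −0.91 to 0.38 with 1 array left out. In the biotin comparison of bio4-1, arrays 2 and 3 gave −0.39 for UGT72B3, −0.77 for UGT78D2 and −0.54 for UGT84A3, and array weights −0.40, −0.49 and −0.44. Leaving out 1 array gave −0.25 to 0.78, −0.66 to 1.17 and −0.46 to 0.34 for these 3, −1.70 to 0.05 for UGT73D1, −1.03 to 0.01 for UGT76B1 and −0.45 to 0.16 for UGT76E11, which median centring put at 0.01. In biotin-watered bio4-1 against wild type the same step gave −0.01 to 0.29 for UGT71B6, −1.09 to 0.05 for UGT72B3, −1.08 to 0.43 for UGT73C1, −0.03 to 0.13 for UGT73D1 and −0.83 to 0.01 for UGT84A3. The cause was not tested. Groups of 3 arrays are too small for a test of single outlying arrays.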
